A study of Homo sapiens with 6 samples.

Results

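The cytosolic ribosomal protein genes were followed in HT29 cells, a human colorectal adenocarcinoma line, during a shortage of histidine or of tryptophan. They were taken as the protein-coding genes in gencode release 44 whose symbols begin with RPL, RPS or RPLP followed by a number and an optional letter or copy suffix, with RPSA added and RPS27L left out. This gave 85 of the 60676 genes listed, 52 of the large (60S) subunit and 33 of the small (40S) subunit, and 8 of the 85 are second copies of another member. Wild-type cells of this 1 line spent 48 h in control medium (untreated), in histidine-depleted medium or in tryptophan-depleted medium, and messenger RNA of 2 samples per group was sequenced. The histidine-free medium was made on an RPMI base and the tryptophan-free medium on a DMEM F-12 base, both with dialyzed fetal bovine serum, while HT29 cells are ordinarily kept in DMEM. The base of the control medium is not given for these samples (full RPMI served as the control in a proteomics experiment of the same study), so the missing amino acid and the base medium cannot be told apart. The labels do not say that the 2 samples of a group are separate cultures, so the spread between them may be technical. The SEs and p-values from limma rest on this spread pooled over genes of like level. They do not measure how closely the 2 samples of a single gene repeat.

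Each cytosolic ribosome holds 1 copy of nearly every ribosomal protein, with the acidic stalk proteins as the exception, and cells spend a large part of their messenger RNA on these proteins. The messenger RNAs usually begin with a C followed by a run of C and T (the 5′ terminal oligopyrimidine or TOP tract), through which mTORC1 and LARP1 couple their translation and stability to amino acid supply. Their genes are scattered over the genome, many carry small nucleolar RNA genes in their introns, and a few have second copies with restricted or differing expression.

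The libraries held between 46390819 and 64388876 reads counted to genes, and intervals from such reads cover counting error only. Values per sample are normalized counts, reads divided by a size factor set over all 6 libraries. Of 9 colon epithelial markers, 8 had more than 3 reads in every library, and FABP1 had 0 reads in both histidine-depleted libraries. Of 7 markers of blood, fibroblast, endothelial and mast cells, 5 had at most 3 reads in every library, and KIT, TPSAB1 and CPA3 had 0 reads in each. The summed normalized count of these 7 was 115 and 109 in untreated cells, 36.1 and 45.8 without histidine and 73.6 and 80.6 without tryptophan, all but a few reads of it from COL1A1 and PECAM1, and its part in the results below was not tested. Replicates were least alike in the untreated group. There, 76 of the 80 ribosomal protein genes tested had the lower normalized count in sample 1, against 71 in the histidine-depleted and 10 in the tryptophan-depleted group. The coefficient of variation of a tested ribosomal protein gene had a median of 4.43% in untreated, 2.50% in histidine-depleted and 1.55% in tryptophan-depleted cells.

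The start of the transcript is shown first, since the TOP tract is the sequence that most of these genes share. Of the 85 genes, 68 had an entry in the RefSeq start site table (GRCh38.p14), and the entry nearest to the start of the gencode canonical transcript was read. A C at the start base followed without a break by further C or T, 5 bases or more in all, was found in 48 of the 68 (70.6%), read on the strand of the gene. The same holds for 1429 of all 35116 starts in the table (4.07%). These are annotated starts and were not measured in these cells. A run that begins some bases further in, as in RPL10A, RPL9 and RPL4, was not counted. For RPS29, RPL26L1 and RPL6 the entry lay 12330, 544 and 320 bases from the gencode start. A gene without a run here may therefore still have a TOP tract. The 8 genes below were picked from those described later, for their different starts, among genes that fell and genes that rose. Each window holds 15 bases before the start and 15 from it, and capitals mark the run of C and T from the start base.
RPL3 (chr22:39319609-39319638, minus strand): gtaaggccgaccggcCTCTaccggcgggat
RPL12 (chr9:127451392-127451421, minus strand): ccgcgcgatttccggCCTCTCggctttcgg
RPS19 (chr19:41860240-41860269, plus strand): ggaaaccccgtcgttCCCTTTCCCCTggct
RPS4X (chrX:72277234-72277263, minus strand): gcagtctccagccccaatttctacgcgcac
RPL22 (chr1:6199581-6199610, minus strand): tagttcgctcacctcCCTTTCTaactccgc
RPL24 (chr3:101686704-101686733, minus strand): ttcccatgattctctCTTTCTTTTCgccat
RPS16 (chr19:39435935-39435964, minus strand): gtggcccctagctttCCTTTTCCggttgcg
RPL7L1 (chr6:42879601-42879630, plus strand): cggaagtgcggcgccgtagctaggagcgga
Runs of 5 bases or more stood at the starts of genes that later fell (RPL12, RPS19, RPL22) and of genes that later rose (RPL24, RPS16). RPL3 has a run of 4 bases, and the windows of RPS4X and RPL7L1 have none at the start base.

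Ribosomal protein genes took a smaller part of the reads after histidine depletion. They held 8.30% and 8.60% of the reads in the untreated samples, 6.32% and 6.52% in the histidine-depleted samples and 8.16% and 7.97% in the tryptophan-depleted samples. Both histidine-depleted samples lay below all others, and the tryptophan-depleted samples lay below both untreated ones by less than the distance between the histidine-depleted and untreated groups. The median gene also lost share after histidine depletion. With libraries scaled by total reads, the median log2 fold change was -0.18 over all 18336 genes tested and -0.28 over the 80 tested ribosomal protein genes. With 2 samples against 2, an exact permutation test cannot give a two-sided p under 0.333. In these bulk samples, fewer cells of a kind and less RNA per cell cannot be told apart.

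The fall in share was uneven over genes. RPL3 alone accounted for 10.5% of the difference between the mean shares of histidine-depleted and untreated cells, and the leading 5 genes (RPL3, RPL13A, RPLP0, RPS19 and RPS4X) for 35.8% together. Large-subunit genes held 5.42% ± 0.136 (SD, n = 2) of the reads in untreated cells, 4.05% ± 0.092 without histidine and 5.06% ± 0.0951 without tryptophan. Small-subunit genes held 3.03% ± 0.0776, 2.37% ± 0.0472 and 3.003% ± 0.0391 (SD, n = 2 each). The ratio of large-subunit to small-subunit reads was 1.79 in both untreated samples, 1.71 and 1.72 without histidine and 1.69 and 1.68 without tryptophan, so the groups did not overlap. Reads assigned to pseudogenes named after a ribosomal protein came to between 4.01% and 4.34% of the reads on the genes themselves in every library. Such copies are nearly identical to their parent genes, so reads may be split between them.

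The comparison of histidine-depleted with untreated cells takes in the missing amino acid and any difference in base medium together. Of the 80 ribosomal protein genes tested, 19 were higher and 37 lower at an adjusted p under 0.05 (limma, Benjamini-Hochberg over all genes), and 24 were not called. Among all 18288 genes tested, 39.1% were called higher and 38.2% lower. The log2 fold changes of the ribosomal protein genes ran from -1.90 to 1.31 with a median of -0.09, and the median over all genes was 0.01. Past a log2 fold change of 1 in size, 2 ribosomal protein genes were higher and 7 lower, where 16.4% of all genes were higher and 16.1% lower. The median absolute log2 fold change was 0.34 against 0.67 over all genes, which were not matched for level. In the lists described below it was 0.32 for other TOP messenger RNAs and 0.31 for ribosome collision and rescue. It was 0.43 for the control of TOP messenger RNAs, 0.47 for chaperones and assembly factors and 0.76 for ribosomal genes outside the symbol rule. The subunits gave like counts, 12 higher and 23 lower of 49 large-subunit genes and 7 higher and 14 lower of 31 small-subunit genes. The split of the calls depended on scaling. It was 15 higher and 57 lower when libraries were scaled by total reads, which moved the median of all genes to -0.18, and 10 higher and 56 lower after quantile normalization.

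The 5 remaining genes were too low to test, and all of them are second copies. RPL10L and RPL39L had 0 reads in each of the 6 libraries, which allows up to 3 reads per library. RPL3L, the copy of RPL3 known from heart and skeletal muscle, had 12 and 10 reads in untreated cells, 3 and 2 without histidine and 5 and 0 without tryptophan. RPS4Y1 and RPS4Y2 did not pass the filter of a mean normalized count of 10.

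The deepest decrease was in RPL3 (chr22:39312882-39320389), a core protein of the large subunit that reaches toward the peptidyl transferase centre. Its normalized counts were 139669 and 149491 in untreated cells, 36719 and 40223 without histidine and 103291 and 101764 without tryptophan. Both depleted groups lay below the untreated samples and did not overlap with each other. The log2 fold change was -1.90 ± 0.07 (SE, adjusted p = 4.29e-18, limma) for histidine, a 3.74-fold decrease, and -0.50 ± 0.07 (adjusted p = 6.64e-11) for tryptophan. The direct comparison of the depletions gave -1.42 ± 0.05 (adjusted p = 6.8e-14).

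RPL12 (chr9:127447674-127451406), which forms the base of the stalk that recruits translation factors, fell from 60547 and 64334 normalized counts in untreated cells to 17586 and 18484 after histidine depletion. The tryptophan-depleted samples held 62382 and 59604, within reach of the untreated ones on both sides. The log2 fold change was -1.78 ± 0.06 (SE, adjusted p = 7.04e-19, limma) for histidine and -0.04 ± 0.06 (adjusted p = 0.542) for tryptophan.

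RPL37 (chr5:40825262-40835222), a small zinc-binding protein of the large subunit, moved in opposite directions under the 2 depletions. It had 62991 and 66633 normalized counts in untreated cells, 19154 and 21061 without histidine and 80390 and 76777 without tryptophan. No group overlapped another. The log2 fold change was -1.68 ± 0.06 (SE, adjusted p = 5.13e-18, limma) for histidine and 0.27 ± 0.06 (adjusted p = 3.56e-05) for tryptophan, a call that was lost when either tryptophan-depleted sample was left out (0.24 and 0.30). Between the depletions the difference was -1.97 ± 0.05 (adjusted p = 6.32e-16), the largest decrease in that comparison.

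RPS19 (chr19:41860255-41872925), a protein needed for maturation of the small subunit and the gene most often mutated in Diamond-Blackfan anaemia, fell from 82624 and 86394 normalized counts to 24752 and 28674 after histidine depletion. It stood at 89390 and 88975 after tryptophan depletion, above both untreated samples. The log2 fold change was -1.66 ± 0.07 (SE, adjusted p = 4.41e-17, limma) for histidine and 0.07 ± 0.06 (adjusted p = 0.319) for tryptophan, the latter called higher after quantile normalization (0.083). RPS4X (chrX:72255679-72277248), a small-subunit protein with a copy on the Y chromosome, fell from 84964 and 90593 to 34143 and 35229, with 86973 and 86470 after tryptophan depletion. Its log2 fold change for histidine was -1.33 ± 0.06 (SE, adjusted p = 7.23e-16, limma), and the tryptophan-depleted samples lay between the untreated ones (called lower with total read scaling, -0.096).

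RPL10A, RPS29 and RPL36 completed the 8 deepest decreases. RPL10A (chr6:35468401-35470785), of the L1 stalk that moves with the leaving transfer RNA, went from 43556 and 46455 normalized counts to 19563 and 20286 after histidine depletion and to 32371 and 31521 after tryptophan depletion. It was lower in both comparisons, by -1.17 ± 0.06 (SE, adjusted p = 1.72e-15, limma) and -0.50 ± 0.05 (adjusted p = 1.06e-15) on the log2 scale. RPS29 (chr14:49570984-49599164), a small zinc-binding protein of the small subunit, had 9968 and 10366 normalized counts in untreated cells, 4726 and 5090 without histidine and 11642 and 11074 without tryptophan. Its log2 fold change was -1.04 ± 0.05 (SE, adjusted p = 3.51e-15, limma) for histidine and 0.15 ± 0.05 (adjusted p = 0.00252) for tryptophan, the latter lost when either tryptophan-depleted sample was left out (0.12 and 0.18). The tryptophan call of RPS29 was also lost after quantile normalization (0.059) and without the limma trend (0.15). RPL36 (chr19:5674947-5691875), a large-subunit protein, had 13076 and 14894 normalized counts in untreated cells, 6651 and 7354 without histidine and 14201 and 13759 without tryptophan. Only the histidine-depleted group of RPL36 stood apart, with a log2 fold change of -0.99 ± 0.06 (SE, adjusted p = 1.81e-13, limma).

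**Figure D1:**
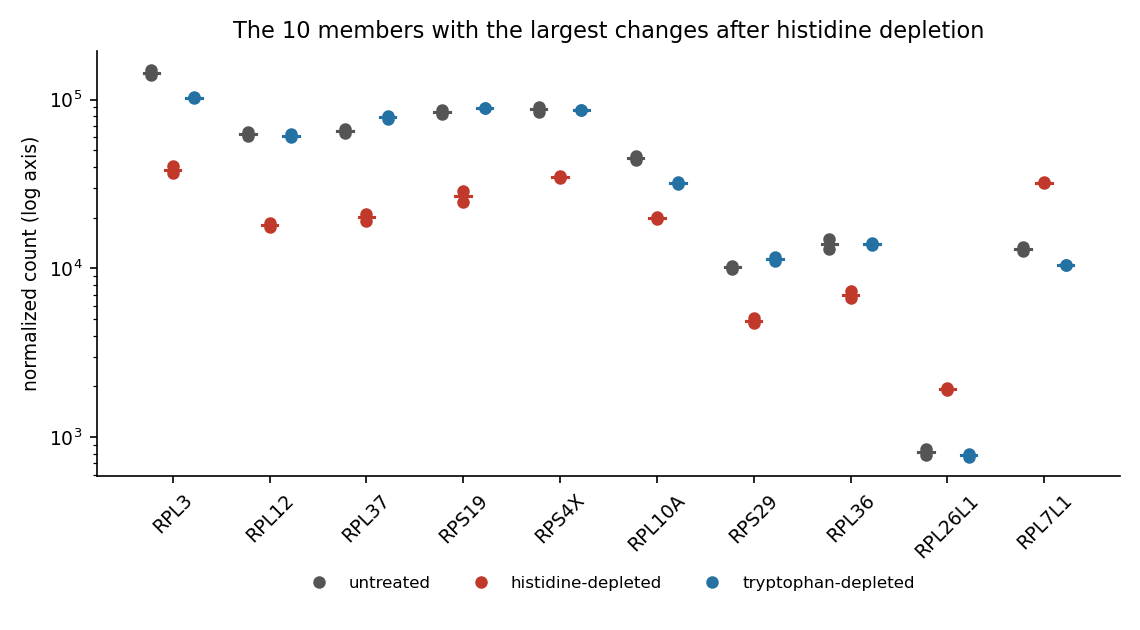
Normalized counts (vertical axis, log scale) of the 10 ribosomal protein genes with the largest change after histidine depletion, for 2 untreated, 2 histidine-depleted and 2 tryptophan-depleted samples, with the group mean as a bar. The histidine-depleted points lie under the others in 8 genes (for RPL3, 36719 and 40223 against 139669 and 149491 untreated) and above them in RPL26L1 and RPL7L1.

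The 2 increases past a log2 fold change of 1 were both in second copies. RPL7L1 (chr6:42879616-42889925), a relative of RPL7 that acts in the assembly of the large subunit, had 12647 and 13404 normalized counts in untreated cells, 32327 and 31862 without histidine and 10421 and 10466 without tryptophan. The histidine-depleted samples were highest and the tryptophan-depleted samples lowest, with no overlap. The log2 fold change was 1.31 ± 0.05 (SE, adjusted p = 6.37e-17, limma), or 2.48-fold, for histidine and -0.33 ± 0.05 (adjusted p = 4.84e-10) for tryptophan. Their difference, 1.62 ± 0.04 (adjusted p = 4.17e-16), was the largest increase between the depletions.

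RPL26L1 (chr5:172958729-172969771), which encodes a protein of the same length as RPL26 (145 codons), had 781 and 856 normalized counts in untreated cells, 1906 and 1968 without histidine and 766 and 794 without tryptophan. Only the histidine-depleted group stood apart, with a log2 fold change of 1.25 ± 0.06 (SE, adjusted p = 7.8e-15, limma). The antisense gene RPL26L1-AS1 had 9 and 6 reads untreated, 165 and 141 without histidine and 32 and 36 without tryptophan, and as the use of strand in counting is not given, reads of the pair may not be separated. RPL22L1 (chr3:170864875-170870208), whose product can take the place of RPL22, did not rise. It had 1286 and 1252 normalized counts in untreated cells, 1163 and 1081 without histidine and 1107 and 1026 without tryptophan, and was called lower by -0.17 ± 0.06 (SE, adjusted p = 0.0197, limma) and -0.26 ± 0.06 (adjusted p = 8.4e-05). The first of these calls was lost in 6 of the alternatives, including DESeq2, no filter and quantile normalization.

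The genes that these copies resemble followed other courses. RPL7 (104410 and 111764 normalized counts untreated, 124463 and 125256 without histidine, 105041 and 103381 without tryptophan) had a log2 fold change of 0.22 ± 0.07 (SE, adjusted p = 0.007, limma) after histidine depletion, which was not called with total read scaling (0.03) or quantile normalization (0.04), nor without either histidine-depleted sample (0.22 in both cases). RPL26 had 1226 and 1349 normalized counts untreated, 1146 and 1154 without histidine and 1572 and 1436 without tryptophan. Its values were -0.15 ± 0.07 (SE, adjusted p = 0.0371, limma) for histidine and 0.22 ± 0.06 (adjusted p = 0.000628) for tryptophan, and the former call was lost in 7 alternatives. The tryptophan call of RPL26 was lost without the limma trend (0.22). How reads that map to several places were counted is not given, and 17 pseudogenes are named after RPL26, so its counts may not hold all of its reads. RPL22 (chr1:6185020-6209389), an RNA-binding protein of the large subunit, fell under both depletions, from 12384 and 12898 normalized counts to 7964 and 8330 without histidine and 7824 and 7779 without tryptophan. RPL22 thus had the deepest decrease of all ribosomal protein genes after tryptophan depletion (-0.70 ± 0.05 SE, adjusted p = 5.62e-30, limma), beside -0.62 ± 0.05 (adjusted p = 4.31e-11) after histidine depletion, and the depletions differed by 0.06 ± 0.04 (adjusted p = 0.165), which turned to a call of -0.077 after quantile normalization.

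Increases among the other ribosomal protein genes stayed below a log2 fold change of 1. RPL24, which takes part in a bridge between the subunits, was the largest of them and is named after its values were seen. It had 40940 and 43314 normalized counts in untreated cells, 66339 and 67513 without histidine and 43776 and 42787 without tryptophan. The histidine-depleted group stood apart, with a log2 fold change of 0.68 ± 0.06 (SE, adjusted p = 2.33e-10, limma). The 16 other increases called after histidine depletion lay between 0.20 (RPL35A) and 0.45 (RPS16, 74896 and 81926 to 105337 and 106758 normalized counts). The increase of RPL35A was not called with total read scaling (0.0070), without the limma trend or without either histidine-depleted sample, and it turned to a call lower after quantile normalization (-0.11).

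Tryptophan depletion gave smaller changes in both directions. Of the 80 genes tested, 22 were higher and 25 lower, where 36.1% of the 17960 genes tested were called higher and 34.8% lower (limma, adjusted p under 0.05). The log2 fold changes ran from -0.70 to 0.54, with a median of 0.01 over ribosomal protein genes and over all genes. Without either tryptophan-depleted sample the median over ribosomal protein genes stayed at 0.01, and without untreated sample 1 or 2 it was -0.04 or 0.05. The counts moved when a single sample was left out, which also leaves fewer libraries to estimate the error. They were 7 higher and 15 lower without tryptophan-depleted sample 1, 8 and 14 without sample 2, 24 and 37 without untreated sample 1 and 38 and 22 without untreated sample 2. With total read scaling they were 22 higher and 38 lower, and after quantile normalization 19 and 40. Genes named here that limma did not call could be called lower then, as RPL24 (-0.17), RPL36 (-0.10) and RPL39 (-0.17) were after quantile normalization and RPL7 (-0.13) and RPL26L1 (-0.15) with total read scaling.

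By subunit, tryptophan depletion gave 13 higher and 8 lower of 31 small-subunit genes and 9 higher and 17 lower of 49 large-subunit genes, beside the 36.1% and 34.8% over all genes. The difference between the subunits was not tested. The largest increases were in RPS13 and RPS12. RPS13, which lies at the interface of the subunits, had 29582 and 31493 normalized counts in untreated cells, 37566 and 37492 without histidine and 44584 and 44652 without tryptophan. Its log2 fold change was 0.54 ± 0.05 (SE, adjusted p = 1.31e-17, limma) for tryptophan and 0.31 ± 0.06 (adjusted p = 2.69e-05) for histidine, the latter turning to -0.00 after quantile normalization. RPS12, with 32093 and 34154 untreated, 41111 and 41402 without histidine and 47000 and 46110 without tryptophan, rose by 0.48 ± 0.05 (SE, adjusted p = 8.32e-15, limma) on the log2 scale under tryptophan depletion. It was also higher without histidine (0.33 ± 0.06 SE, adjusted p = 1.41e-05), a call lost after quantile normalization (0.032). In both genes the tryptophan-depleted samples were the highest of the 6.

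RPL7A and RPS15 had the deepest decreases after tryptophan depletion next to RPL22. RPL7A, host to 4 small nucleolar RNA genes, had 115434 and 119478 normalized counts in untreated cells, 76699 and 81610 without histidine and 83453 and 79981 without tryptophan. It fell by 0.56 ± 0.07 and 0.53 ± 0.07 (SE) on the log2 scale (adjusted p = 5.16e-08 and 7.26e-13, limma), and the depleted groups overlapped. The direct comparison of RPL7A gave calls with total read scaling (-0.15) and quantile normalization (-0.20), lower without histidine. RPS15, a small-subunit protein near the decoding site, had 16133 and 17169 untreated, 13419 and 14388 without histidine and 12081 and 11475 without tryptophan, and here the tryptophan-depleted group was lowest (-0.51 ± 0.05 SE, adjusted p = 7.13e-19, limma). The histidine value of RPS15 was -0.25 ± 0.05 (SE, adjusted p = 0.00017), not called without histidine-depleted sample 1 (-0.20).

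In the direct comparison, 23 of 80 ribosomal protein genes stood higher and 43 lower without histidine than without tryptophan, where 38.7% of 18264 genes were called higher and 38.0% lower (limma, adjusted p under 0.05). The number of higher genes was 15 without tryptophan-depleted sample 2, 15 with total read scaling (beside 52 lower) and 15 after quantile normalization (beside 53 lower). The median log2 difference was -0.15, against 0.01 over all genes. Large-subunit genes were called higher in 17 and lower in 24 of 49, and small-subunit genes in 6 and 19 of 31. RPL18, of the large subunit, was the tenth largest difference with no overlap of the groups. It had 63241 and 69977 normalized counts untreated, 36079 and 39153 without histidine and 68455 and 67582 without tryptophan (-0.86 ± 0.05 SE between the depletions, adjusted p = 7.56e-11, limma).

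RPL7L1, RPL11, RPL23A, RPL35 and RPS26, set together here after their values were seen, were called higher without histidine and lower without tryptophan, each against the same untreated samples. In the direct comparison of the depletions they were higher by 1.62, 0.71, 0.66, 0.56 and 0.55 (log2, all called by limma). After quantile normalization the histidine value of RPL35 turned to -0.040 and that of RPS26 was 0.058, neither of them called, and the histidine call of RPL11 was lost when either histidine-depleted sample was left out.

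**Figure D2:**
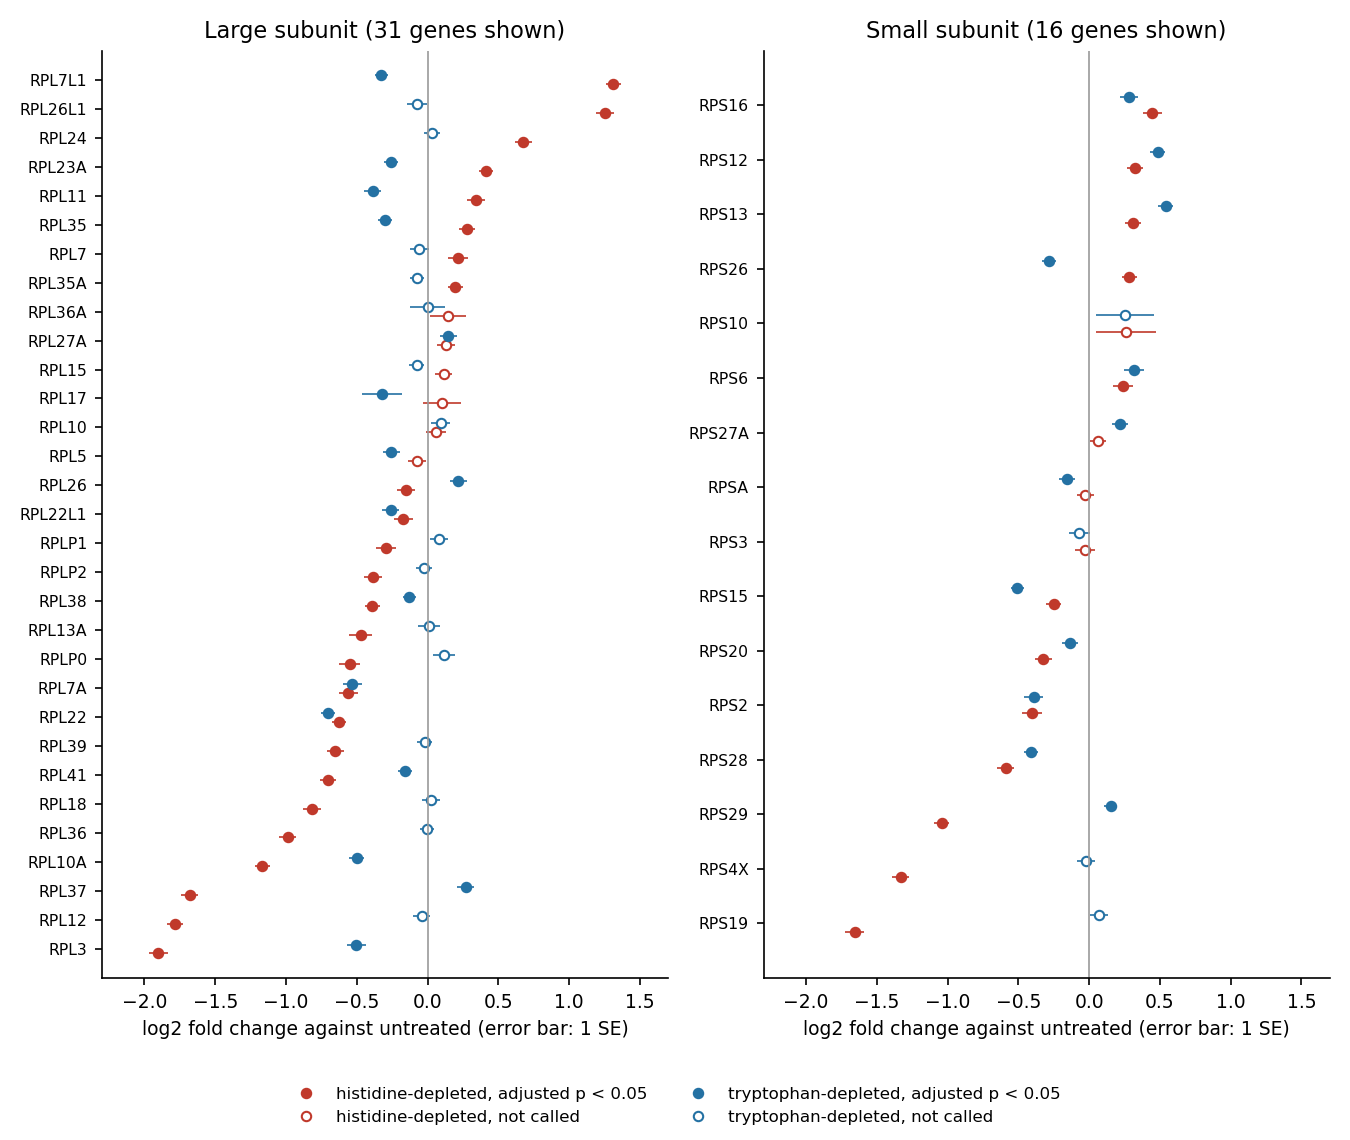
Log2 fold change against untreated cells (horizontal axis, bars of 1 SE from limma) for 47 of the tested ribosomal protein genes, those named in the text, with the large subunit (31) and the small subunit (16) in separate panels, ordered by the value after histidine depletion. Filled points passed an adjusted p of 0.05, and the histidine values run from -1.90 to 1.31 while the tryptophan values stay between -0.70 and 0.54.

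Members were also read by their position in the ribosome. RPLP0 of the stalk carries the paired acidic proteins RPLP1 and RPLP2, and with RPL12 they form the platform for elongation factors. All 4 were called lower by limma after histidine depletion, as were 37 of the 80 tested ribosomal protein genes and 38.2% of all genes, RPL12 by the amount given above. RPLP0 had 165669 and 174854 normalized counts untreated, 112335 and 119012 without histidine and 187472 and 183490 without tryptophan, and its log2 fold change for histidine was -0.55 ± 0.07 (SE, adjusted p = 2.97e-07, limma). RPLP2 (49413 and 54439 untreated, 38785 and 40150 without histidine, 51422 and 50919 without tryptophan) gave -0.39 ± 0.06 (adjusted p = 3.88e-06). RPLP1 (81303 and 94223 untreated, 69024 and 73236 without histidine, 94700 and 91396 without tryptophan) gave -0.29 ± 0.07 (adjusted p = 0.000768), which was lost when either histidine-depleted sample was left out (-0.25 and -0.33) and without the limma trend. After tryptophan depletion 0 of the 4 were called by limma, also at an unadjusted p under 0.05, while edgeR, DESeq2 and the limma fit of all 6 libraries each called RPLP0 higher. RPLP2 was called lower with total read scaling (-0.098) and quantile normalization (-0.20), and RPL12 with total read scaling (-0.11).

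RPL5 and RPL11 bind 5S ribosomal RNA, and when not assembled they bind MDM2. RPL11 had 67474 and 72242 normalized counts in untreated cells, 87445 and 88558 without histidine and 54710 and 52681 without tryptophan. The 3 groups did not overlap, with log2 fold changes of 0.34 ± 0.06 (SE, adjusted p = 4.06e-05, limma) for histidine and -0.39 ± 0.06 (adjusted p = 2.8e-09) for tryptophan. The histidine call was lost when either histidine-depleted sample was left out, at 0.35 and 0.34. RPL5 had 66797 and 70493 untreated, 64264 and 65366 without histidine and 58627 and 56994 without tryptophan, with a value of -0.25 ± 0.06 (SE, adjusted p = 6.14e-05, limma) for tryptophan. That call was lost without either tryptophan-depleted sample (-0.27 and -0.24), and the histidine value was -0.07 ± 0.06 (adjusted p = 0.285), which was called lower by edgeR (-0.083), with total read scaling (-0.26) and after quantile normalization (-0.30).

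Ribosomal proteins at the mRNA entry channel include those that are ubiquitylated when ribosomes collide. RPS2 had 128875 and 144654 normalized counts untreated, 101200 and 104090 without histidine and 105163 and 104018 without tryptophan. Its log2 fold changes of -0.40 ± 0.07 (SE, adjusted p = 2.57e-05, limma) and -0.39 ± 0.07 (adjusted p = 1.92e-07) lay close together, while the direct comparison called RPS2 lower without histidine under total read scaling (-0.13) and quantile normalization (-0.21). Without either histidine-depleted sample the first was no longer called (-0.39 and -0.42). RPS20 gave -0.32 ± 0.06 and -0.14 ± 0.05 (SE, adjusted p = 1.89e-05 and 0.0213, limma), from 43011 and 45675 untreated to 34858 and 35599 without histidine and 41069 and 40023 without tryptophan. The tryptophan call of RPS20 was lost when either tryptophan-depleted sample was left out (-0.15 and -0.12) and without the limma trend (-0.14). RPS3 (137262 and 144043 untreated, 133144 and 140722 without histidine, 136344 and 133339 without tryptophan) was not called by limma, and the untreated and histidine-depleted values of RPS3 overlapped. It was called lower after histidine depletion with total read scaling (-0.22) and quantile normalization (-0.23), and lower after tryptophan depletion with both of these (-0.14 each), edgeR (-0.073) and DESeq2 (-0.078). RPS10 was listed at only 48.7 to 74.3 normalized counts over the 6 libraries. RPS10, RPL17 (118 to 190) and RPL36A (175 to 230) each share exons with a read-through gene that is listed at 0 reads in every library, so their counts may not hold all of their reads.

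Of 9 proteins that line or surround the exit tunnel, 2 were higher and 4 lower after histidine depletion (39.1% and 38.2% over all genes) and 2 higher and 4 lower after tryptophan depletion (36.1% and 34.8%), which is no result about these genes. RPL39, which lies in the tunnel wall, had 26812 and 29723 normalized counts untreated, 17453 and 18311 without histidine and 28030 and 27976 without tryptophan, a log2 fold change of -0.65 ± 0.06 (SE, adjusted p = 2.08e-10, limma) for histidine. Of 10 genes mutated in Diamond-Blackfan anaemia, 4 were higher and 3 lower after histidine depletion, and 1 was higher and 4 lower after tryptophan depletion, against the same shares over all genes. RPS26, one of them, had 18684 and 19191 normalized counts in untreated cells, 22701 and 23120 without histidine and 15909 and 15364 without tryptophan. Its values were 0.28 ± 0.05 and -0.28 ± 0.05 (SE, adjusted p = 2.54e-05 and 7.38e-08, limma), and the increase was not called after quantile normalization (0.06).

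Further genes were fixed by name for what their proteins do. RPS6, the substrate of S6 kinases, had 108036 and 115305 normalized counts untreated, 129472 and 132197 without histidine and 140577 and 139385 without tryptophan. Both depleted groups lay above the untreated one, with 0.24 ± 0.07 and 0.32 ± 0.07 (SE, log2, adjusted p = 0.00385 and 1.95e-05, limma). Each call was lost when either sample of the depleted group was left out (0.25 and 0.23 for histidine, 0.32 and 0.32 for tryptophan), and the histidine call also with total read scaling (0.05) and quantile normalization (0.03). RPS27A, made as a fusion with ubiquitin, had 45310 and 47249 untreated, 47955 and 48182 without histidine and 54633 and 53740 without tryptophan. Its histidine value of 0.06 ± 0.06 (SE, adjusted p = 0.317, limma) turned to -0.13 with total read scaling and -0.24 after quantile normalization, both called lower. RPS27A was higher without tryptophan than in untreated cells (0.22 ± 0.06 SE, adjusted p = 0.000273, limma), a call lost after quantile normalization (0.044) and without either tryptophan-depleted sample (0.21 and 0.23), and the depletions differed by -0.17 ± 0.04 (adjusted p = 0.00116). RPSA, the 40S protein also known as a laminin receptor, had 55122 and 58813 untreated, 54611 and 56397 without histidine and 51959 and 50901 without tryptophan, and fell by 0.15 ± 0.06 (SE, adjusted p = 0.0124, limma) on the log2 scale in the latter, a call lost when either tryptophan-depleted sample was left out (-0.16 and -0.15). The tryptophan call of RPSA was also lost without the limma trend (-0.15). RPSA was called lower without histidine only with total read scaling (-0.22), quantile normalization (-0.31) or untreated sample 1 left out (-0.078). RPL10 (112379 and 118180 untreated, 116443 and 122420 without histidine, 124905 and 122183 without tryptophan) was not called in any of the 3 comparisons by limma, and its histidine value of 0.06 turned to -0.13 with total read scaling and -0.11 after quantile normalization, both called lower. RPL10 was called higher after tryptophan depletion by edgeR (0.088) and DESeq2 (0.083), and lower between the depletions with total read scaling (-0.15) and quantile normalization (-0.15).

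Since histidine and tryptophan were the amino acids removed, the codons for them were counted in the gencode canonical coding sequences. The tested ribosomal protein genes held between 0 and 16 histidine codons (CAC or CAT), with a median of 2.18% of codons against 2.45% over 13196 protein-coding genes tested. Tryptophan codons (TGG) made up a median of 0.74% against 1.08%, and 24 of the 80 genes had none. The stretches below show both extremes of histidine content, with histidine codons in capitals. RPL41 and RPS28 are whole coding sequences without the stop codon and hold no histidine codon. For RPL3 and RPL27A the 40 codons richest in histidine are given, codons 3 to 42 of 403 and codons 10 to 49 of 148.
RPL41 (chromosome 12): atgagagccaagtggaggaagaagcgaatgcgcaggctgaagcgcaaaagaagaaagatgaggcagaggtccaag
RPS28 (chromosome 19): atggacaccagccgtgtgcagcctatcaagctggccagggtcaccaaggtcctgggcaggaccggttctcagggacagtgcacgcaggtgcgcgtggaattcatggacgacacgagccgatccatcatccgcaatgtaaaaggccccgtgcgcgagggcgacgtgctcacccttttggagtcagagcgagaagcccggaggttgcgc
RPL3 (chromosome 22): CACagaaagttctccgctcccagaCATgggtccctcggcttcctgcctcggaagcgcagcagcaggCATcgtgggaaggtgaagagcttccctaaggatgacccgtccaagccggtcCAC
RPL27A (chromosome 11): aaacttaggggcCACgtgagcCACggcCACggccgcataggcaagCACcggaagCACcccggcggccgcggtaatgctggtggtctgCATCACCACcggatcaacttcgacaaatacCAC

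The 4 genes without a histidine codon were all called lower after histidine depletion, as were 37 of the 80 tested ribosomal protein genes and 38.2% of all genes. RPL41, which encodes the shortest ribosomal protein (25 codons), had 26672 and 27574 normalized counts untreated, 15945 and 17179 without histidine and 24632 and 24196 without tryptophan. The log2 fold change was -0.70 ± 0.05 (SE, adjusted p = 1.62e-11, limma) for histidine. RPS28 had 11292 and 13261 untreated, 7822 and 8352 without histidine and 9414 and 9124 without tryptophan, and was lower in both comparisons, by -0.59 ± 0.06 and -0.41 ± 0.05 (SE, adjusted p = 4.6e-09 and 2.02e-13, limma). RPLP2 and RPL38, the other two, were both at -0.39.

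At the other end, RPL3, with the most histidine codons of the tested genes (16), fell the most, while RPL27A and RPL15, with 11 each, were at 0.13 and 0.11 and were not called by limma. Both were called higher by edgeR, DESeq2, the fit of all 6 libraries and the fit with a replicate block, and both turned negative with total read scaling (-0.058 and -0.076) and quantile normalization (-0.056 and -0.21), where RPL15 was called lower. RPL27A held the largest percentage of histidine codons (7.43%), with 71939 and 78281 normalized counts untreated and 80101 and 83307 without histidine. By number of codons, the median log2 fold change was -0.49 with none (4 genes), 0.10 with 1 to 3 (30 genes), -0.23 with 4 or 5 (31 genes) and -0.07 with 6 or more (15 genes). Across the 80 genes, which share libraries and are not independent, the correlation of the change with the percentage of histidine codons was weak (Pearson r = -0.14, Spearman rho = -0.15). For tryptophan depletion and the percentage of tryptophan codons the values were 0.03 and 0.08.

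Start sites, small nucleolar RNA genes and lengths were set beside the changes in the same way. Genes with a run of 5 or more from a C at the annotated start changed by a median of -0.12 on the log2 scale after histidine depletion (47 tested, 11 higher and 23 lower). Those without a run at that base had -0.09 (18 tested, 4 higher and 7 lower), beside 39.1% higher and 38.2% lower over all genes. As genes of the second set can have a tract further in, this does not compare genes with and without a TOP tract. After tryptophan depletion the medians were 0.02 and -0.09. The 28 genes with small nucleolar RNA genes inside them had a median of -0.07 after histidine depletion (5 higher, 13 lower), and the 52 tested genes without had -0.11 (14 higher, 24 lower), beside the same shares over all genes. Spearman's rho with the change after histidine depletion was 0.09 for the number of codons, 0.01 for the length of the 5′ leader, -0.07 for the number of pseudogenes and -0.16 for the level in untreated cells, over the same 80 genes.

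Ribosomal proteins whose symbols fall outside the rule were read alongside. FAU, a fusion that yields the small-subunit protein eS30, had 11402 and 12094 normalized counts untreated, 19032 and 19512 without histidine and 13540 and 13180 without tryptophan, and rose by 0.72 ± 0.05 (SE, adjusted p = 4.18e-12, limma) on the log2 scale after histidine depletion. RPL36AL, a copy of RPL36A, rose from 4485 and 4777 to 10735 and 10492, by 1.21 ± 0.05 (adjusted p = 1.61e-16), with 5046 and 4875 after tryptophan depletion. In both genes the histidine-depleted samples were the highest. RACK1, a scaffold on the small subunit, had 103300 and 111031 untreated, 58152 and 61724 without histidine and 84462 and 81867 without tryptophan (-0.83 ± 0.07 and -0.37 ± 0.06 SE, adjusted p = 3.53e-11 and 1.4e-07, limma). RPS27L, a copy of RPS27 induced by p53, fell by 0.63 ± 0.06 (SE, adjusted p = 5.1e-10, limma) on the log2 scale after histidine depletion, from 2006 and 2100 to 1312 and 1318.

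Chaperones and assembly factors of ribosomal proteins were counted too, with no test of the list against other genes. Of 16 such genes, 13 were higher and 2 lower after histidine depletion, beside 39.1% and 38.2% of all genes (median log2 fold change 0.47, against 0.01 over all genes), and 6 were higher and 6 lower after tryptophan depletion, beside 36.1% and 34.8%. BCCIP, a chaperone of RPL23, had 4050 and 3945 normalized counts in untreated cells, 10578 and 10497 without histidine and 3731 and 3803 without tryptophan, a log2 fold change of 1.41 ± 0.05 (SE, adjusted p = 3.78e-18, limma) for histidine. SBDS, which helps release EIF6 from new large subunits, rose under both, from 3706 and 4033 to 9977 and 9681 without histidine and 5439 and 5605 without tryptophan (1.35 ± 0.05 and 0.51 ± 0.05 SE, adjusted p = 3.21e-17 and 9.66e-19). GRWD1, the chaperone of RPL3, had 5425 and 5711 untreated, 10581 and 10767 without histidine and 3379 and 3560 without tryptophan. Its log2 fold changes were 0.95 ± 0.05 and -0.69 ± 0.05 (SE, adjusted p = 1.19e-14 and 2.92e-28, limma). PDCD2L, which accompanies RPS2, fell by 0.71 ± 0.09 (SE, adjusted p = 8.2e-13, limma) on the log2 scale after tryptophan depletion, from 561 and 540 to 343 and 333. PDCD2L was called higher without histidine, at 648 and 631 (0.22 ± 0.08 SE, adjusted p = 0.0116), but not by DESeq2 (0.22), with total read scaling (0.036) or without histidine-depleted sample 1 (0.20).

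Among 16 tested genes of other TOP messenger RNAs, which encode elongation and initiation factors and RNA-binding proteins, 7 were higher and 5 lower after histidine depletion (39.1% and 38.2% over all genes), and 4 higher and 10 lower after tryptophan depletion (36.1% and 34.8%). EIF3L, a subunit of initiation factor eIF3, fell from 9740 and 10302 to 3771 and 4151 normalized counts after histidine depletion (-1.33 ± 0.05 SE, adjusted p = 7.14e-17, limma). HNRNPA1, an RNA-binding splicing regulator, fell under both depletions, from 105691 and 110015 to 50000 and 50795 without histidine and 40907 and 40348 without tryptophan (-1.09 ± 0.06 and -1.42 ± 0.06 SE, adjusted p = 6.82e-14 and 3.96e-49). NPM1, a nucleolar chaperone, fell by 0.77 ± 0.06 (SE, adjusted p = 7.59e-25, limma) on the log2 scale after tryptophan depletion, from 79011 and 84717 to 48329 and 48214. Without histidine NPM1 was called higher, at 102335 and 100355 (0.32 ± 0.07 SE, adjusted p = 0.000148), a call lost after quantile normalization (0.051) and without either histidine-depleted sample (0.30 and 0.34).

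Of 13 genes that control TOP messenger RNAs, 5 were higher and 6 lower after histidine depletion (39.1% and 38.2% over all genes) and 8 higher and 2 lower after tryptophan depletion (36.1% and 34.8%). EIF4E, the cap-binding protein, had 4680 and 4843 normalized counts in untreated cells, 10079 and 9828 without histidine and 3144 and 3231 without tryptophan. The groups did not overlap, and the log2 fold changes were 1.07 ± 0.05 and -0.59 ± 0.05 (SE, adjusted p = 9.45e-16 and 9e-23, limma). RPS6KB2, an S6 kinase, fell from 2522 and 2697 to 1287 and 1304 without histidine (-0.999 ± 0.06 SE, adjusted p = 7.6e-14). It was called higher without tryptophan, at 3033 and 2929 (0.19 ± 0.05 SE, adjusted p = 0.000636), though not without the limma trend or without tryptophan-depleted sample 1 (0.17). LARP1B, a relative of the TOP-binding LARP1, rose from 2498 and 2727 to 4388 and 4301 without tryptophan (0.73 ± 0.05 SE, adjusted p = 4.04e-29), and was lower without histidine, at 1995 and 1876 (-0.42 ± 0.06 SE, adjusted p = 5.99e-07). MYC, of the same list, fell from 14803 and 15808 to 8647 and 8942 without tryptophan (-0.81 ± 0.05 SE, adjusted p = 1.14e-34, limma). Without histidine MYC was at 14525 and 14252, not called by limma (-0.08 ± 0.05 SE, adjusted p = 0.167).

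Genes that detect or rescue stalled and collided ribosomes were counted as well. Of 12, 6 were higher and 5 lower after histidine depletion (39.1% and 38.2% over all genes), and 9 higher and 1 lower after tryptophan depletion (36.1% and 34.8%). ABCE1, which splits ribosomes for recycling, had 7187 and 7581 normalized counts untreated, 19087 and 18362 without histidine and 9683 and 9981 without tryptophan (1.35 ± 0.05 and 0.41 ± 0.05 SE, adjusted p = 1.99e-17 and 3.81e-14, limma). EDF1, a sensor of collided ribosomes, rose from 9167 and 9932 to 19402 and 19535 without histidine (1.04 ± 0.05 SE, adjusted p = 5.23e-15). PELO, which recognises stalled ribosomes, rose from 2240 and 2280 to 5232 and 5218 without tryptophan (1.20 ± 0.05 SE, adjusted p = 6.2e-51) and was lower without histidine, at 1922 and 1987 (-0.20 ± 0.06 SE, adjusted p = 0.0021). MAP3K20, the ribotoxic stress kinase, fell by 0.97 ± 0.05 (SE, adjusted p = 8.99e-43, limma) on the log2 scale after tryptophan depletion, from 8220 and 8787 to 4281 and 4423, and by 0.32 ± 0.05 (adjusted p = 3.87e-06) after histidine depletion.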

How the data were processed

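Stranded poly(A) RNA libraries of HT29 cells were sequenced as read pairs. The submitters' processing notes and the study's methods give STAR 2.7.10a on GRCh38, htseq-count in HTSeq 2.0.5 with gencode 38, and DESeq2. The authors deposited gene counts divided by DESeq2 size factors, a signal that is never negative, in 1 table per depletion with the same untreated libraries. The use of strand, molecular identifiers and multi-mapping reads is not given in the sources used here. All deposited values came out as whole reads (100%, tolerance 0.001) once divided by the step of their library, between 46390819 and 64388876 reads per library. Names, types and coordinates came from gencode 44 (60357 of 60676 identifiers found).

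Each depletion was tested within its own table with limma 3.58.1 (R 4.3.3, trend, two-sided) after adding a pseudocount of 1 and taking log2. Genes averaging 10 or more normalized counts entered, p-values were adjusted by Benjamini-Hochberg over all of them, and the threshold was 0.05. Changes of low genes are understated on this scale. The depletions were compared on the recovered reads of all 6 libraries, scaled together by median of ratios, and the same scaling gave the values printed per sample. Fold changes against untreated cells therefore stem from the separate tables. The alternatives were: a pseudocount of 0.5 or 8; a filter at 50 or none; total read scaling; quantile normalization; limma untrended; the recovered reads in edgeR 4.0.16 (TMM) or in DESeq2 1.42.0; a replicate block, all 6 libraries in 1 fit, a log2 fold change of at least 1, and each library left out. The fits were also run on simulated counts with 1 spread for all genes and few changed genes. These data differ on both points, so that run does not give the error rate of the calls here.

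The genes, the lists and the tests were chosen with earlier results of these data known. Genes were named as the 10 largest changes per comparison past the threshold with groups that did not overlap, by role (stalk, 5S, mRNA entry, copies and the genes they resemble, ribosomal proteins outside the symbol rule, and 5 fixed by name), and as the 2 largest called changes per depletion in each other list. Not every gene so named is described. RPL24, RPL35A, RPL23A, RPL35, RPL15, RPL27A, RPS16, RPL13A, RPL36A and RPL38 were added after their values were seen. Some genes are not reported here.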

Additional observations from a re-analysis of the deposited data

How the results depend on the processing

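The counts moved with the scaling, with single libraries and with a limit on size, and the cause of the changes below was not tested. With quantile normalization, 10 genes were higher and 56 lower after histidine depletion (median log2 fold change -0.30), 40 lower after tryptophan depletion (median -0.077), and 15 higher between the depletions (median -0.25). Total read scaling gave 57 lower (median -0.28), 38 lower (median -0.065) and 15 higher (median -0.25) in the same order. Requiring a log2 fold change of at least 1 in size left 2 higher and 7 lower for histidine, 0 and 0 for tryptophan and 2 and 6 between the depletions, as that threshold passes fewer genes. Between the depletions, 15 genes were higher by limma without the trend, and the median was -0.17 with edgeR and -0.13 without a filter. On recovered reads, edgeR called 25 higher and 44 lower for histidine, 25 and 30 for tryptophan and 23 and 45 between the depletions, and DESeq2 called 25 and 38, 25 and 29, and 23 and 44. The share of reads in untreated, histidine-depleted and tryptophan-depleted cells was 8.69%, 6.58% and 8.32% of reads on protein-coding genes, and 8.73%, 6.59% and 8.28% of all reads with the ribosomal genes outside the symbol rule. In all these settings the share was lowest without histidine.

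Directions of small changes turned with scaling. After histidine depletion these were RPL10 (quantile -0.11, total -0.13), RPL15 (-0.21, -0.076), RPL27A (-0.056, -0.058), RPS27A (-0.24, -0.13), RPL35 (quantile -0.040), RPL35A (quantile -0.11), RPS13 (quantile -0.0018), RPL17 (total -0.087) and RPL36A (total -0.043). After tryptophan depletion they were RPL13A (quantile -0.21, total -0.060), RPL24 (-0.17, -0.039), RPL26L1 (quantile 0.035), RPL18 (total -0.047), EDF1 (total -0.0068), RPS19 (total -0.00084) and RPL36A (total -0.070, DESeq2 -0.017, edgeR -0.0053), and RPL36 stood at 0.0023 in the fit of all 6 libraries. Between the depletions they were RPL22 (quantile -0.077, total -0.040), RPS3 (-0.057, -0.080), RPL22L1 (total -0.029), RPS16 (quantile -0.029) and RPSA (quantile -0.020).

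Leaving out 1 library leaves a lone sample that is assumed to vary like the others. The counts then ranged from 13 to 27 higher and 30 to 45 lower for histidine (median -0.13 to -0.05), 7 to 38 higher and 14 to 37 lower for tryptophan (median -0.04 to 0.05), and 15 to 24 higher and 39 to 45 lower between the depletions (median -0.17 to -0.13). Signs changed within these ranges for histidine in RPL17 (-0.0025 to 0.21), RPL36A (-0.046 to 0.34), RPS10 (-0.039 to 0.55), RPS3 (-0.067 to 0.0078) and RPSA (-0.078 to 0.022). For tryptophan they changed in RPL12 (-0.085 to 0.0028), RPL13A (-0.050 to 0.073), RPL18 (-0.049 to 0.098), RPL24 (-0.0088 to 0.073), RPL36 (-0.099 to 0.089), RPL36A (-0.19 to 0.20), RPL39 (-0.094 to 0.055), RPLP1 (-0.026 to 0.19), RPLP2 (-0.097 to 0.043), RPS10 (-0.047 to 0.55) and RPS4X (-0.071 to 0.022), and between the depletions in RPS10 (-0.047 to 0.026) and RPS3 (-0.018 to 0.062).

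The labels do not say whether samples of equal number belong together. Over genes of all kinds, their deviations correlated by 0.12 for untreated and histidine, -0.05 for untreated and tryptophan and -0.10 for the depletions. Such weak values cannot exclude a pairing. Among the 80 tested ribosomal protein genes, sample 1 was the lower in 76 untreated, 71 histidine-depleted and 10 tryptophan-depleted cases. With a replicate block the counts were 24 higher and 39 lower for histidine (median -0.09), 22 and 27 for tryptophan (median 0.0065) and 24 and 44 between the depletions (median -0.15). A crossed replicate block, chosen after seeing the data, also gave 24 and 44 between the depletions. Depth limits the lowest genes named, RPS10 and RPL3L, which rest on few reads.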
